A study of Mus musculus with 12 samples.

Results

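Yap1, its paralog Wwtr1 (which encodes TAZ), 3 genes widely used as readouts of these coactivators or as brakes on them, and the secreted matricellular CCN and thrombospondin genes were followed in mouse kidney at day 1 after HP-AKI. The 10 genes are Yap1, Wwtr1, Lats2, Amotl2, Ankrd1, Ctgf, Cyr61, Nov, Wisp1 and Thbs1. They were taken by their name in the deposited table of 43346 genes, where each name stood once, and all 10 passed the filter on low counts that left 17470 genes to test. The HP-AKI group held 6 kidney libraries, numbered 7, 8, 9, 11, 12 and 13, harvested 1 day after HP-AKI. The sham group held 6 kidney libraries, numbered 1 to 6, from sham mice at the same day. AKI stands for acute kidney injury, and HP-AKI is used in this field for injury by heme proteins, although the labels do not write the letters out. Strain, sex, age, any genotype and the agent and dose that caused the injury are not given in the sources used here. Nothing in the labels says that each library came from its own animal, so the p-values measure the spread between libraries, which may be technical. The HP-AKI libraries held 31624522 to 40630917 counts and the sham libraries 35201197 to 41951129. HP-AKI 8, sham 2 and sham 1 lay lowest on the second principal component of all genes (-45.63, -45.13 and -29.17), which held 7.85% of the variance. With both groups pooled, HP-AKI 9 came next at -16.31, without a clear break. Within sham there was a break, as sham 3, sham 4, sham 5 and sham 6 lay at 11.53 to 25.11, above sham 1 and sham 2. The tests treated all sham libraries as 1 group, and the cause of this split was not tested.

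YAP and TAZ are transcriptional coactivators without a DNA-binding domain of their own, and they act on genes mainly through the TEAD transcription factors. The Hippo kinase cascade, in which STK3 and STK4 activate LATS1 and LATS2, phosphorylates both proteins and keeps them in the cytoplasm, while cell spreading, stretch and loss of cell contacts let them enter the nucleus. Their activity is thus set largely at the protein level, which RNA does not show. CCN proteins are secreted modular proteins that bind integrins, proteoglycans and growth factors, and in the kidney the best studied of them, CTGF, is known for its link to fibrosis.

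All 10 genes rose in HP-AKI (edgeR quasi-likelihood F-test, adjusted p under 0.05 over all tested genes). Of all tested genes 37.7% rose, 35.2% fell and 72.8% passed in either direction, so a rise was common in these kidneys. The rise was at least 2-fold for 5 of the 10, namely Ankrd1, Ctgf, Cyr61, Thbs1 and Nov, against 16.1% of all tested genes. In all 10 genes every HP-AKI library lay above every sham library, which held for 26.7% of tested genes, while 52.4% had groups apart in either direction. Levels are given in CPM, counts brought to a common library total with TMM factors. The median log2 fold change of the 10 was 1.32, beside 0.04 for all tested genes. In such bulk kidney RNA, fewer cells of a type and less RNA per cell cannot be told apart.

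**Figure D1:**
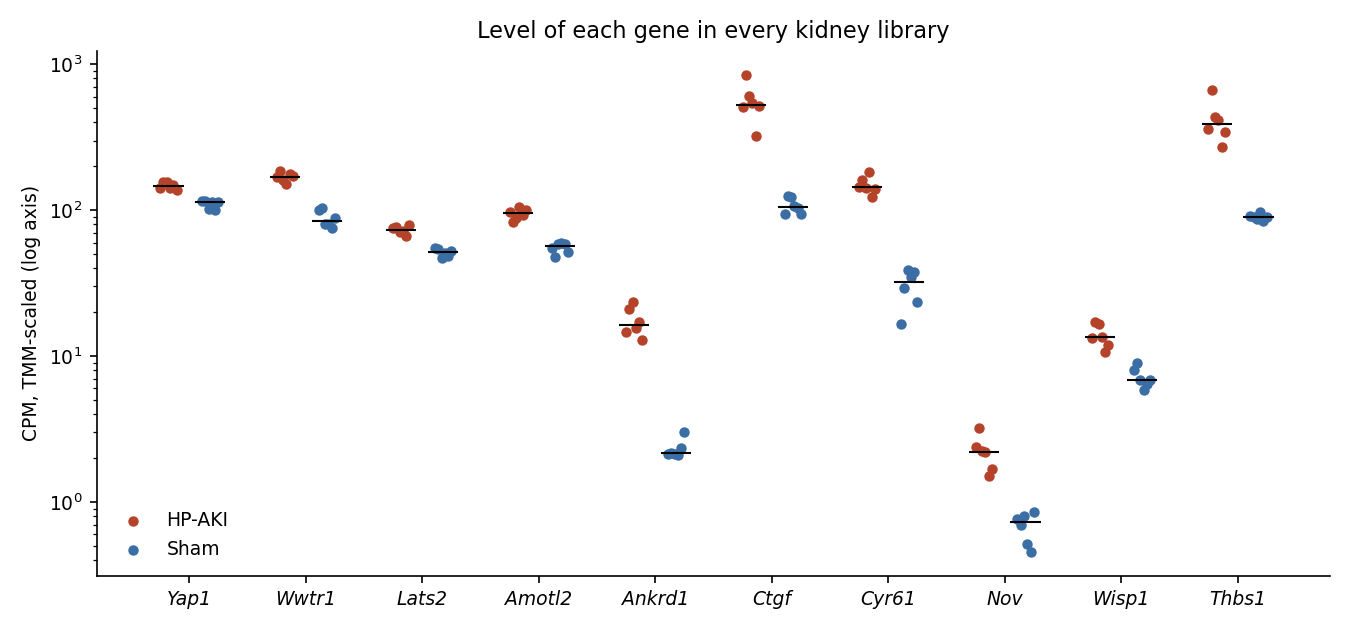
CPM (log axis) of the 10 genes in each of the 6 HP-AKI libraries (red, left) and 6 sham libraries (blue, right). Each point is a library and each black line a group median. No HP-AKI point lies at or below a sham point of its gene, and the gap is widest for Ankrd1, at 12.8 CPM or more in HP-AKI and 3.0 CPM or less in sham.

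The promoters of these genes are shown because TEAD factors bind the letters GGAATG, read on either strand, next to the start site of many YAP-regulated genes. RefSeq promoter windows (build GRCm38.p6, 250 bases before to 50 after the start) were at hand for 6 of the 10 genes: Yap1, Wwtr1, Lats2, Amotl2, Ankrd1 and Cyr61. All 6 held GGAATG or its reverse complement in at least 1 window, against 16.6% of the 27025 genes of the table and 14.7% of its 32851 windows. These genes were listed for known ties to YAP, so their share is no independent test of such a tie. Ankrd1 held GGAATG at positions -210 to -205 and -123 to -118, Cyr61 on the reverse strand at -103 to -98, and Amotl2 on the reverse strand at -65 to -60, counted from 1 at the start with no position 0. Yap1 itself held it at -141 to -136, and Lats2 downstream of the start at 5 to 10. Wwtr1 held a single site in its 2 overlapping windows, at -136 to -131 from 1 start and -170 to -165 from the other. The second Lats2 window, of another start, held none. The 3 windows below, whose genes rose 7.52-fold, 4.95-fold and 1.71-fold, are written 5′ to 3′ along the gene with the GGAATG or CATTCC letters in capitals. They are the minus strand of chr19:36119795-36120094, the minus strand of chr3:145649936-145650235 and the plus strand of chr9:102717554-102717853.
Ankrd1: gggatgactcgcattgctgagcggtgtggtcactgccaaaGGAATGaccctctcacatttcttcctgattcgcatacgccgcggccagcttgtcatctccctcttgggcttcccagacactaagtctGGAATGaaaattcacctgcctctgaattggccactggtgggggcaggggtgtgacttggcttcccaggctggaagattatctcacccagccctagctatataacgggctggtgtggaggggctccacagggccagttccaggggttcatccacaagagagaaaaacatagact
Cyr61: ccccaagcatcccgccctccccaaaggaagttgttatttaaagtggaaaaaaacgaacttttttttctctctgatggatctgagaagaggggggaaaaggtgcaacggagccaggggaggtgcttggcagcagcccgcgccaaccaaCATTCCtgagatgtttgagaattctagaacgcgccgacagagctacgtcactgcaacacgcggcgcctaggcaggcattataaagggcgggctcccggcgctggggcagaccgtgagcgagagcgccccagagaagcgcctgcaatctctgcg
Amotl2: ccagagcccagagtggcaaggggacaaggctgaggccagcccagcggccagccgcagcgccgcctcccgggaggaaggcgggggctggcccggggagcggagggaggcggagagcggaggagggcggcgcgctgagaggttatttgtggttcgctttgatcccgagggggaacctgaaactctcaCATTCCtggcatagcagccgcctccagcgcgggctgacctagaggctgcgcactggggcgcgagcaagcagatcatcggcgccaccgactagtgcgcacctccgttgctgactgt
The AP-1 letters TGANTCA and the CArG box of serum response factor were also searched on both strands. Neither was in any of the 8 windows of these genes, while 7.81% and 1.63% of all windows held them, and no GGAATG match overlapped another searched motif. The letters TATAAA, part of a TATA box, stood in the Cyr61 window at -25 to -20 and in 13.6% of all windows. In the other gene lists GGAATG was present for 4 of 6 genes of the TEAD and VGLL list, 5 of 13 of the serum response factor list, 6 of 20 Hippo kinases and regulators and 2 of 10 of the further YAP and TAZ targets. It was present for 1 of 8 other matricellular genes and 1 of 10 receptor genes, shares below the 16.6% of all genes. A match is a description of the sequence and does not show that a factor was bound.

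Yap1 and Wwtr1, the coactivators themselves, were both present at well over 50 CPM in every library and both rose in HP-AKI. Yap1 (ENSMUSG00000053110, chr9:7931999-8004596, minus strand, GRCm38, like all positions of genes here) ran from 138 to 155 CPM with a median of 146 in HP-AKI, and from 101 to 116 CPM with a median of 113 in sham. The groups were narrow and apart, and the difference was 1.33-fold, a log2 fold change of 0.42 ± 0.06 (SE) with an adjusted p of 3.29e-05 (edgeR). Wwtr1 (ENSMUSG00000027803, chr3:57455649-57575910, minus strand) ran from 151 to 186 CPM with a median of 169.8 in HP-AKI, and from 75.3 to 103 CPM with a median of 84.3 in sham. That was 1.93-fold, or 0.94 ± 0.09 (SE) on the log2 scale, with an adjusted p of 1.52e-07 (edgeR). On the scale per length, as CPM per kilobase of listed gene length (RPKM), Wwtr1 stood at 35.3 ± 2.52 in HP-AKI and 18.4 ± 2.39 in sham (SD, n = 6 each). Yap1 stood at 15.9 ± 0.775 RPKM in HP-AKI and 11.9 ± 0.733 RPKM in sham (SD, n = 6 each), below Wwtr1 in every library. This order rests on the listed lengths, 9257 bases for Yap1 and 4779 for Wwtr1. In CPM, Yap1 lay above Wwtr1 in every sham library and below it in every HP-AKI library.

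Lats2 and Amotl2 encode brakes on YAP that YAP itself switches on, and both rose by less than 2-fold. Lats2 (ENSMUSG00000021959, chr14:57642077-57758388, minus strand), the kinase that phosphorylates YAP and TAZ, ran from 66.8 to 79.0 CPM with a median of 73.6 in HP-AKI, and from 47.0 to 54.9 CPM with a median of 51.7 in sham. Its log2 fold change was 0.52 ± 0.07 (SE), with an adjusted p of 5.28e-06 (edgeR). Amotl2 (ENSMUSG00000032531, chr9:102716672-102733418, plus strand), an angiomotin family protein that holds YAP at cell junctions, ran from 82.5 to 105 CPM with a median of 95.3 in HP-AKI, and from 47.9 to 59.5 CPM with a median of 57.1 in sham. It rose by 0.77 ± 0.08 (SE) on the log2 scale, with an adjusted p of 4.66e-07 (edgeR). Neither pair of groups overlapped, and the coefficient of variation stayed at or below 8.72% in each group for both genes.

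Ankrd1, the ankyrin repeat protein CARP of stressed muscle and a standard YAP readout, rose most of the 10. Ankrd1 (ENSMUSG00000024803, chr19:36111965-36119844, minus strand) ran from 12.8 to 23.3 CPM with a median of 16.3 in HP-AKI, and from 2.1 to 3.0 CPM with a median of 2.16 in sham. The 7.52-fold difference was 2.91 ± 0.16 (SE) on the log2 scale, with an adjusted p of 4.56e-10 (edgeR), and 2.96% of tested genes had a larger rise. Of the sham libraries, 5 lay between 2.1 and 2.36 CPM and sham 6 stood above them at 3.0 CPM. Ankrd1 is abundant in striated muscle. The summed level of the 5 skeletal muscle markers was 0.613 to 1.04 CPM in HP-AKI and 0.637 to 1.67 CPM in sham. Of these Mylpf, the only one tested, fell (152 counts in HP-AKI and 237 in sham), and Acta1 had 25 counts in HP-AKI and 10 in sham. Ckm, Myh4 and Myh1 had 2, 1 and 2 counts in HP-AKI and 2, 2 and 6 in sham.

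Of the CCN genes, Ctgf rose 5.16-fold and Cyr61 4.95-fold, and Nov and Wisp1, which stayed at or below 3.08 RPKM in every library, rose 3.25-fold and 1.93-fold. Ctgf (ENSMUSG00000019997, chr10:24595442-24598683, plus strand), CCN2, ran from 324 CPM in HP-AKI 12 to 849 CPM in HP-AKI 8 with a median of 529 in HP-AKI, and from 94.2 to 125 CPM with a median of 105 in sham. This was a log2 fold change of 2.37 ± 0.18 (SE) with an adjusted p of 1.27e-08 (edgeR). The lowest HP-AKI library was still above the highest sham library, though the HP-AKI libraries spread over a 2.62-fold range against 1.33-fold in sham. Ctgf overlaps Gm15270 on the opposite strand over 665 of its 2861 exonic bases, and whether counting used strand is not given in the sources used here, so reads of the pair there cannot be told apart. Gm15270 was listed with 142 counts over the HP-AKI libraries and 132 over the sham libraries, while Ctgf had 122955 in HP-AKI and 23570 in sham. Yap1 and Thbs1 also overlap genes on the opposite strand (Gm20416 and Gm29233), which had 0 counts in both groups.

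Cyr61 (ENSMUSG00000028195, chr3:145646971-145649985, minus strand), CCN1, an early-response matrix protein that promotes cell adhesion and senescence, ran from 123 to 183 CPM with a median of 144 in HP-AKI, and from 16.7 to 38.7 CPM with a median of 32.1 in sham. The difference was a log2 fold change of 2.31 ± 0.18 (SE) with an adjusted p of 1.72e-08 (edgeR). Here the sham libraries were the more scattered, with a coefficient of variation of 13.9% in HP-AKI against 28.6% in sham, and sham 1 was the lowest of them. Nov (ENSMUSG00000037362, chr15:54745702-54754039, plus strand), CCN3, described as a counterpart of CTGF that restrains matrix production, ran from 1.5 to 3.23 CPM with a median of 2.21 in HP-AKI, and from 0.456 to 0.855 CPM with a median of 0.729 in sham. That was 1.69 ± 0.22 (SE) on the log2 scale, with an adjusted p of 4.75e-06 (edgeR), and it rested on 487 counts in HP-AKI and 149 in sham. Wisp1 (ENSMUSG00000005124, chr15:66891320-66923201, plus strand), CCN4, a WNT-induced secreted protein, ran from 10.7 to 17.0 CPM with a median of 13.4 in HP-AKI, and from 5.85 to 9.0 CPM with a median of 6.86 in sham. It rose by 0.95 ± 0.14 (SE) on the log2 scale, with an adjusted p of 1.74e-05 (edgeR).

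The remaining CCN genes, Wisp2 (CCN5) and Wisp3 (CCN6), were too rare to pass the filter. Wisp2 averaged 0.117 ± 0.0885 CPM in HP-AKI and 0.171 ± 0.0931 CPM in sham (SD, n = 6 each), from 27 counts in HP-AKI and 37 in sham. Wisp3 averaged 0.0230 ± 0.0267 CPM in HP-AKI and 0.0583 ± 0.0277 CPM in sham (SD, n = 6 each), from 5 counts in HP-AKI and 13 in sham. In exact two-sided permutation tests over all 924 group assignments the differences gave p = 0.305 for Wisp2 and p = 0.0541 for Wisp3, or 0.305 and 0.108 adjusted over the 2 tests. Their groups overlapped, and neither difference was detectable at this depth. Wisp3 also shares 482 of its 1419 exonic bases with Tube1 on the opposite strand.

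Per length, CCN transcripts summed to 176 to 381 RPKM in the HP-AKI libraries with a median of 268, and to 43.1 to 64.0 RPKM in the sham libraries with a median of 56.0. Ctgf made up 70.9% ± 4.91 of that sum in HP-AKI and 69.9% ± 4.4 in sham, and Cyr61 made up 27.9% ± 4.84 in HP-AKI and 26.9% ± 5.09 in sham (SD, n = 6 each). The ratio of Ctgf to Cyr61 was 1.87 to 3.73 in HP-AKI libraries and 1.96 to 4.0 in sham libraries, and the ranges overlapped. The share of Wisp1 was 0.810 to 1.10% in HP-AKI and 1.90 to 3.37% in sham, without overlap. The share of Nov was 0.234 to 0.332% in HP-AKI and 0.283 to 0.643% in sham.

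**Figure D2:**
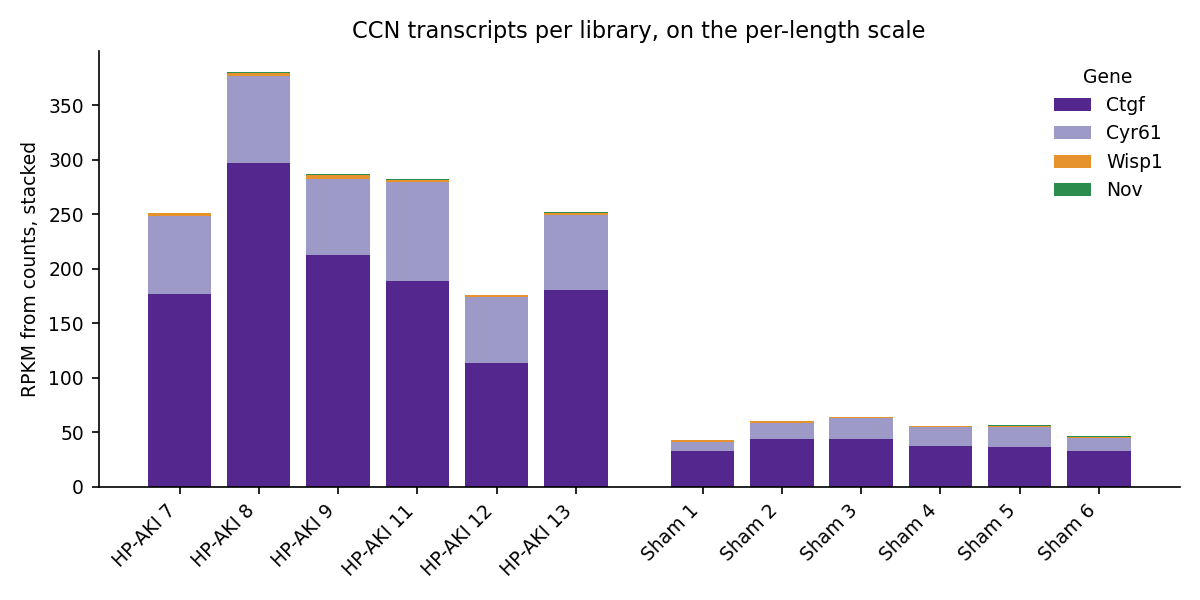
RPKM computed from counts for Ctgf, Cyr61, Wisp1 and Nov, stacked for each HP-AKI library (left) and each sham library (right). Ctgf and Cyr61 fill nearly all of each bar in both groups, and the HP-AKI bars reach 176 to 381 RPKM against 43.1 to 64.0 RPKM in sham.

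Thbs1 encodes thrombospondin 1, a matricellular protein that inhibits angiogenesis and can release active TGF-beta from its latent complex. Thbs1 (ENSMUSG00000040152, chr2:118111876-118127133, plus strand) ran from 269 CPM in HP-AKI 12 to 663 CPM in HP-AKI 8 with a median of 389.7 in HP-AKI, and from 84.4 to 96.7 CPM with a median of 89.3 in sham. The difference was 4.62-fold, a log2 fold change of 2.21 ± 0.17 (SE) with an adjusted p of 1.37e-08 (edgeR). The coefficient of variation was 32.6% in HP-AKI and 4.73% in sham, where the libraries were almost level. Platelets store thrombospondin 1. Of 5 platelet and megakaryocyte markers, 3 were tested and all 3 rose: Pf4 by 1.88, Ppbp by 0.96 and Itga2b by 0.71 on the log2 scale. A rise was called for 37.7% of all tested genes. The 5 markers summed to 8.51 to 15.5 CPM in HP-AKI and 4.12 to 7.57 CPM in sham. Of the untested markers, Gp1ba had 4 counts in HP-AKI and 9 in sham, and Gp9 had 10 in HP-AKI and 6 in sham. The part of platelets in the Thbs1 difference was not tested.

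**Figure D3:**
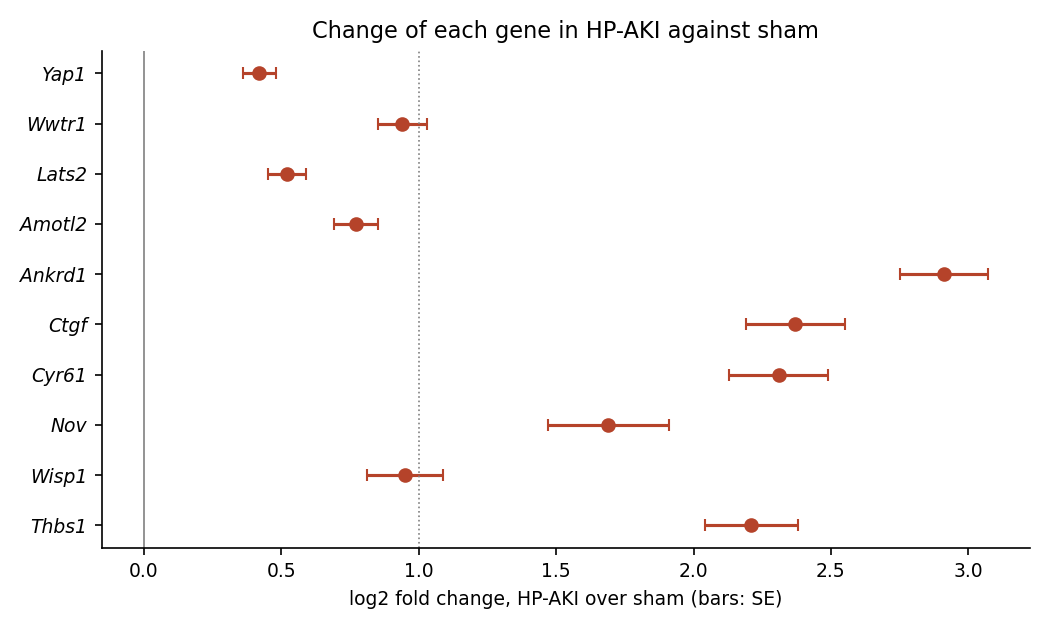
Log2 fold change of each gene in HP-AKI over sham with its SE (bars), from edgeR. The dotted line marks 2-fold. Ankrd1 (2.91), Ctgf (2.37), Cyr61 (2.31), Thbs1 (2.21) and Nov (1.69) lie beyond it, and Yap1 (0.42) and Lats2 (0.52) rose least.

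On the RPKM scale the order of levels in HP-AKI was Ctgf, Cyr61, Thbs1, Wwtr1, Yap1, Amotl2, Lats2, Ankrd1, Wisp1 and Nov, from 195 ± 59.9 for Ctgf to 0.769 ± 0.213 for Nov (SD, n = 6). Neighbours with overlapping ranges in HP-AKI were Cyr61 and Thbs1 (73.5 and 68.3 RPKM), Yap1 and Amotl2 (15.9 and 15.0 RPKM), and Lats2 and Ankrd1 (10.1 and 9.88 RPKM). In sham the order was Ctgf, Wwtr1, Cyr61, Thbs1, Yap1, Amotl2, Lats2, Ankrd1, Wisp1 and Nov, from 37.7 ± 4.82 for Ctgf to 0.237 ± 0.0560 RPKM for Nov (SD, n = 6). There Wwtr1 and Cyr61 (18.4 and 14.8 RPKM), Cyr61 and Thbs1, and Ankrd1 and Wisp1 (1.31 and 1.30 RPKM) overlapped. Ankrd1 thus lay beside Lats2 in HP-AKI and beside Wisp1 in sham. Both orders rest on the listed gene lengths, which need not be those of the transcripts present.

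HP-AKI 8 held the highest HP-AKI value of 6 of the 10 genes (Yap1, Wwtr1, Ctgf, Nov, Wisp1 and Thbs1), and HP-AKI 12 the lowest of 6 (Ctgf, Cyr61, Nov, Wisp1, Lats2 and Thbs1). Relative to the HP-AKI median, HP-AKI 8 stood at 0.68 for Ctgf and 0.77 for Thbs1 on the log2 scale, and HP-AKI 12 at -0.71 for Ctgf and -0.53 for Thbs1. Amotl2 ran the other way in HP-AKI 8, which held its lowest HP-AKI value. Over the 12 libraries, after centring each group on its mean, Ctgf and Thbs1 had the highest Pearson correlation of any of the 10 genes (0.874), and Yap1 and Amotl2 the lowest (-0.755). This is a description over values that share each library's depth and RNA quality. Without HP-AKI 8, sham 1 and sham 2 all 10 genes still rose, with log2 fold changes of 2.18 for Ctgf, 1.99 for Thbs1 and 0.39 for Yap1. The 4 proximal tubule markers summed to 1451 CPM in HP-AKI 8 and 1461 CPM in HP-AKI 9, where Ctgf stood at 849 and 607 CPM. They summed to 2353 CPM in HP-AKI 12 and 2514 CPM in HP-AKI 13, where Ctgf stood at 324 and 516 CPM. In HP-AKI 7 and HP-AKI 11 they summed to 1789.8 and 1849 CPM, with Ctgf at 506 and 542 CPM. Whether the spread of Ctgf and Thbs1 goes with the tubule markers was not tested.

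**Figure D4:**
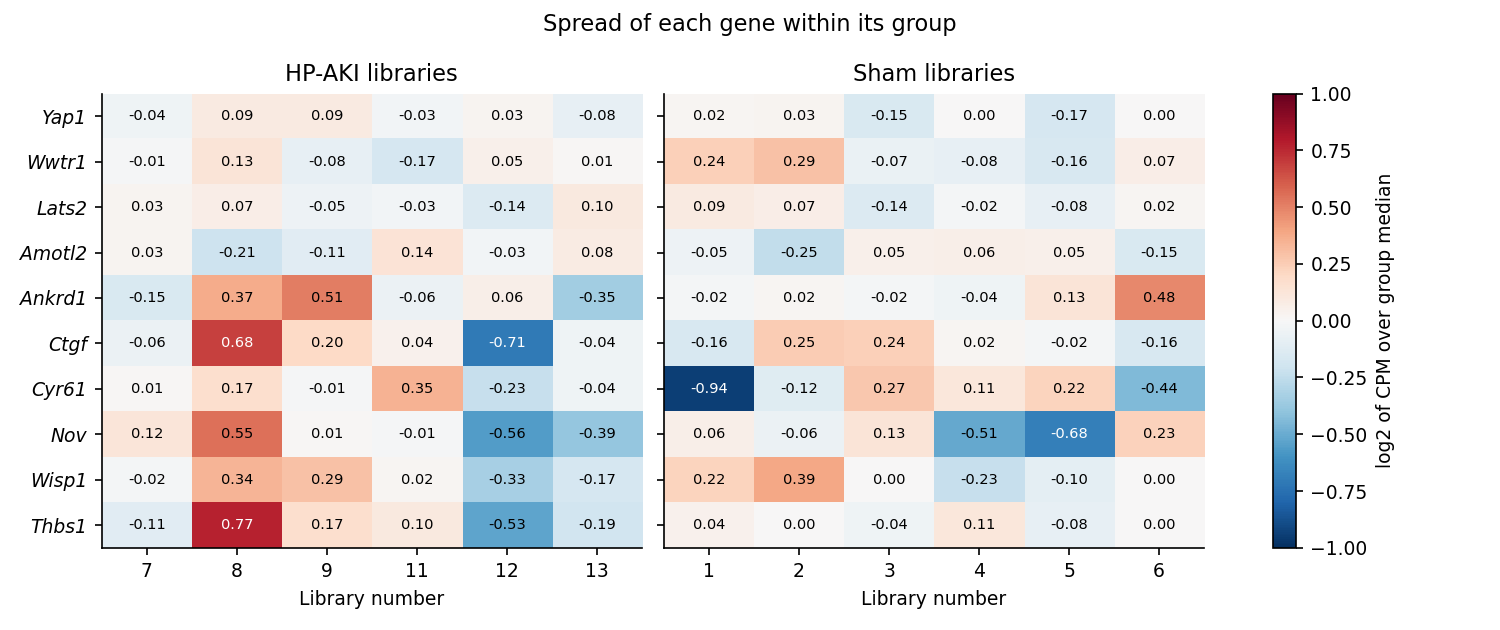
Log2 of each library's CPM over its group's median for the 10 genes, in HP-AKI (left) and sham (right). In HP-AKI, library 8 is high and library 12 low for Ctgf, Nov, Wisp1 and Thbs1, while in sham the largest deviation is that of Cyr61 in library 1 (-0.94).

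Ctgf had the highest mean RPKM of the 10 and served to look for genes with a like pattern. Among 11574 genes of at least 5 CPM outside the lists, log2 CPM centred within groups over the 12 libraries followed Ctgf most closely for Obfc1 (Pearson r = 0.947), 2310057M21Rik (0.937) and Lmnb1 (0.914). Obfc1, of the telomere-capping CST complex, averaged 7.66 ± 1.03 CPM in HP-AKI and 6.77 ± 0.200 CPM in sham (SD, n = 6 each) and did not pass the test (log2 fold change 0.18 ± 0.10, SE). Lmnb1, which encodes lamin B1 of the nuclear envelope, rose by 0.53 ± 0.11 (SE), and 2310057M21Rik by 0.75 ± 0.11 (SE) on the log2 scale. These 3 were picked as the highest of many over 12 values. By rank (Spearman) the correlation with Ctgf was 0.713 for Obfc1, 0.874 for 2310057M21Rik and 0.804 for Lmnb1, so their order depended on the measure.

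Of 24 Hippo kinases and upstream regulators, all tested, 16 rose, 3 fell and 5 did not pass, with a median log2 fold change of 0.45 beside 0.04 for all tested genes. Over all tested genes 37.7% rose and 35.2% fell. The largest rises were those of Map4k4, a kinase that can activate LATS, of Rassf1, a RASSF scaffold, and of Sav1, the adaptor of STK3 and STK4. Map4k4 averaged 176 ± 22.5 CPM in HP-AKI and 64.5 ± 3.32 CPM in sham (SD, n = 6 each), Rassf1 57.9 ± 3.33 CPM in HP-AKI and 21.7 ± 1.64 CPM in sham, and Sav1 138 ± 21.2 CPM in HP-AKI and 62.0 ± 8.61 CPM in sham. Their log2 fold changes were 1.45, 1.41 and 1.15. Rassf1 shares 2496 of its 5845 exonic bases with Gm9917, and Sav1 1336 of 5265 with Atl1, on the opposite strand. Gm9917 had 2283 counts in HP-AKI and 2672 in sham, against 12761 in HP-AKI and 4754 in sham for Rassf1. Sav1 is listed at 2524 bases in the deposited table, so whether the stretch shared with Atl1 was counted is not known. The 3 that fell were Amot, a relative of Amotl2, at -0.62, Wwc2, a LATS activator of the KIBRA family, at -0.39, and Nf2, merlin, the membrane scaffold that recruits LATS, at -0.32. Nf2 averaged 85.1 ± 5.09 CPM in HP-AKI and 106 ± 6.51 CPM in sham (SD, n = 6 each), without overlap. The count of falls was 6 without sham 1, sham 2 and HP-AKI 8, where Wwc1 (-0.29), Taok2 (-0.20) and Fat4 (-0.30) also passed. There Taok3, which had risen by 0.26, lost its call (0.16), as it did with no filter on low counts (0.23), and Mob1b gained one (0.30). Single libraries changed 2 calls: Mob1b rose without sham 2 (0.27) and Fat4 fell without HP-AKI 8 (-0.33).

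Of the TEAD factors, which carry YAP and TAZ to DNA, Tead1, Tead3 and Tead4 rose, Tead4 with the largest fold change. Tead1 averaged 264 ± 18.1 CPM in HP-AKI and 129 ± 20 CPM in sham (SD, n = 6 each), a log2 fold change of 1.03 ± 0.10 (SE). Tead4 averaged 9.59 ± 2.45 CPM in HP-AKI and 2.29 ± 0.503 CPM in sham, 4.19-fold, or 2.06 ± 0.20 (SE) on the log2 scale. In both genes all HP-AKI libraries lay above all sham libraries, and the adjusted p was 1.68e-07 for Tead1 and 1.65e-07 for Tead4 (edgeR). Tead3 rose by 0.47 ± 0.18 (SE) with overlapping groups, and lost its call (0.37 to 0.46) when any 1 of sham 1, sham 2, sham 3, HP-AKI 7, HP-AKI 11, HP-AKI 12 and HP-AKI 13 was left out. Tead2 averaged 2.22 ± 0.526 CPM in HP-AKI and 2.24 ± 0.449 CPM in sham and did not pass (-0.02 ± 0.18, SE).

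Of the VGLL proteins, which bind TEAD factors in place of YAP, Vgll3 rose 3.34-fold. It averaged 10.8 ± 3.73 CPM in HP-AKI and 3.22 ± 0.376 CPM in sham (SD, n = 6 each), with no overlap and an adjusted p of 2.37e-06 (edgeR). Vgll4, the VGLL protein known to compete with YAP for TEAD, averaged 26.3 ± 3.21 CPM in HP-AKI and 31.3 ± 7.97 CPM in sham and did not pass (-0.25 ± 0.15, SE), but fell without sham 1 (-0.36) and without sham 1, sham 2 and HP-AKI 8 together (-0.39). Vgll1 had 24 counts in HP-AKI and 6 in sham and was not tested. Vgll2 had no count in any library, which allows up to 0.0142 CPM over the HP-AKI group and 0.0132 CPM over the sham group. These floors are the level of 3 counts in the count totals without TMM factors, so they are not quite on the scale of the other CPM values. Of the 6 tested genes of the TEAD and VGLL list 4 rose and none fell, with a median log2 fold change of 0.75. The share over all tested genes was 37.7% for rises and 35.2% for falls.

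Of 16 further genes of a published YAP and TAZ target signature, 15 were tested, of which 10 rose, 2 fell and 3 did not pass. Their median log2 fold change was 0.88. Rises made up 37.7% and falls 35.2% of all tested genes. Gadd45a, a stress and DNA damage response gene, averaged 116 ± 22.4 CPM in HP-AKI and 15.7 ± 3.83 CPM in sham (SD, n = 6 each), a log2 fold change of 2.88 ± 0.17 (SE). F3, tissue factor, which starts coagulation, averaged 127 ± 29.0 CPM in HP-AKI and 22 ± 2.80 CPM in sham, 5.79-fold. Fjx1, a secreted regulator of planar polarity signals, averaged 5.0 ± 0.224 CPM in HP-AKI and 1.87 ± 0.330 CPM in sham. Nuak2, an AMPK-related kinase, went against them with 39.1 ± 2.72 CPM in HP-AKI and 108 ± 11.5 CPM in sham, a log2 fold change of -1.47 ± 0.08 (SE). Ccdc80, a matrix protein, was the other that fell (-0.56 ± 0.12, SE), and Crim1 fell as well without HP-AKI 8 (-0.20). Gadd45a is also a target of p53 and other stress pathways, and it shares 337 of 1764 exonic bases with E230016M11Rik on the opposite strand.

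**Figure D5:**
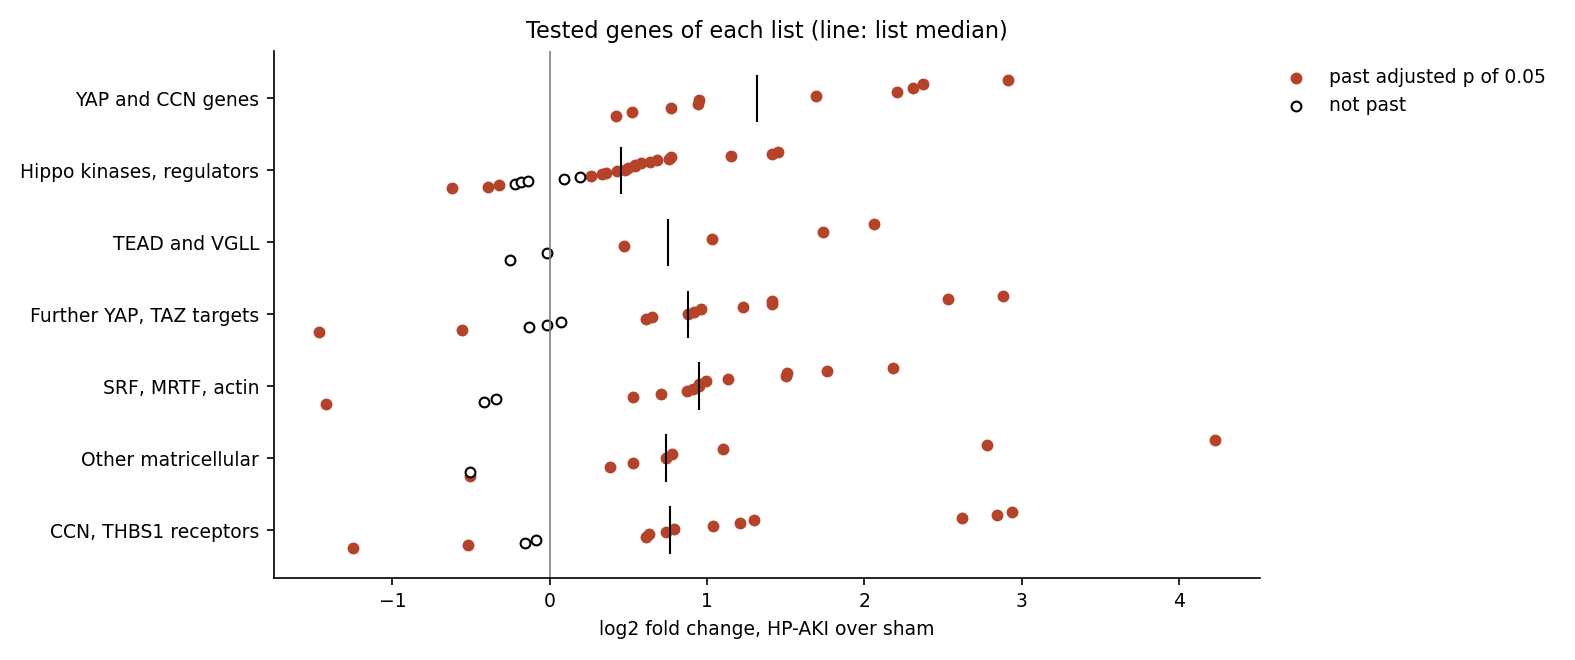
Log2 fold change, HP-AKI over sham, of every tested gene in each list, filled red where the adjusted p passed 0.05 and open where it did not. Black lines are list medians, which run from 0.45 for the Hippo kinases and regulators to 1.32 for the YAP and CCN genes, beside 0.04 for all tested genes.

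Serum response factor (SRF) and its MRTF cofactors respond to actin assembly and share target genes with YAP, so their list was set beside it. Of 15 genes, all tested, 12 rose, 1 fell and 2 did not pass, with a median of 0.95. Among all tested genes 37.7% rose and 35.2% fell. Srf averaged 25.7 ± 4.79 CPM in HP-AKI and 13.3 ± 2.79 CPM in sham (SD, n = 6 each). Tagln, the actin-binding protein transgelin, averaged 208 ± 39.0 CPM in HP-AKI and 45.8 ± 8.39 CPM in sham, a log2 fold change of 2.18 ± 0.15 (SE), and shares 108 of 1988 exonic bases with Pcsk7 on the opposite strand. Flna, the actin crosslinker filamin A, rose by 1.76 and Actb, beta-actin, by 1.51 on the log2 scale. Fhl1, a LIM-domain protein, fell to 86.3 ± 5.12 CPM in HP-AKI, against 232 ± 17.9 CPM in sham. Smooth muscle also expresses Tagln and Acta2. Of 4 smooth muscle markers, Acta2 rose, Myh11 fell and 2 did not pass, and they summed to 102 to 174 CPM in HP-AKI and 68.8 to 125 CPM in sham. Their part in the Tagln difference was not tested. Cnn1 fell without HP-AKI 11 (-0.61), and Myl9 fell without sham 1, sham 2 and HP-AKI 8 (-0.51), each of which made 2 falls.

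Among the other matricellular genes 9 of 12 were tested, of which 7 rose, 1 fell and 1 did not pass, with a median of 0.74. Beside them, 37.7% of all tested genes rose and 35.2% fell. Spp1, osteopontin, averaged 28643 ± 5815 CPM in HP-AKI and 1527 ± 99.8 CPM in sham (SD, n = 6 each), the largest change of any gene in these lists at 4.23 ± 0.15 (SE) on the log2 scale. Tnc, tenascin C, averaged 136 ± 28.6 CPM in HP-AKI and 19.8 ± 4.12 CPM in sham, and Sparc, which binds collagen and calcium, 446 ± 48.2 CPM in HP-AKI and 208 ± 5.69 CPM in sham. Of the other thrombospondins, Thbs2 rose by 0.78 ± 0.10 (SE) and Thbs3 fell by 0.51 on the log2 scale, while Thbs4, at 0.278 ± 0.176 CPM in HP-AKI and 0.399 ± 0.135 CPM in sham, did not pass. Thbs4 fell without HP-AKI 11 (-0.91), and Comp, untested here, fell without sham 1, sham 2 and HP-AKI 8 (-1.58), each of which made 2 falls. Thbs3 shares 318 of 4823 exonic bases with Mtx1 on the opposite strand.

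Of 14 genes for receptors of CCN proteins and thrombospondin 1, all tested, 10 rose, 2 fell and 2 did not pass, with a median of 0.76. The shares over all tested genes were 37.7% for rises and 35.2% for falls. Itgb3, the beta subunit of the vitronectin receptor that CTGF and CYR61 bind, averaged 28.5 ± 10 CPM in HP-AKI and 3.71 ± 0.404 CPM in sham (SD, n = 6 each), a log2 fold change of 2.94 ± 0.19 (SE). Its partner subunit Itgav rose by 1.04 and Itga5, the fibronectin receptor subunit, by 2.62 on the log2 scale. Itgam, the leukocyte integrin subunit CD11b, averaged 20.5 ± 7.99 CPM in HP-AKI and 2.85 ± 0.569 CPM in sham. Cd36, a thrombospondin 1 receptor and fatty acid transporter of the tubule, fell to 328 ± 126 CPM in HP-AKI, against 782 ± 145 CPM in sham, and Lrp6, a WNT coreceptor, fell by 0.52 on the log2 scale. Cd47, another thrombospondin receptor of the list, rose by 0.61. Itgb2, the partner of CD11b, rose by 0.63 but did not pass without HP-AKI 7 (0.51), without HP-AKI 13 (0.55), or without sham 1, sham 2 and HP-AKI 8 together (0.34). In that last setting Itgb5 fell (-0.31), which made 3 falls.

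Markers of kidney cell types moved as well. So did 72.8% of all tested genes, with 37.7% that rose and 35.2% that fell. All 4 proximal tubule markers fell, and they summed to 1451 to 2514 CPM in HP-AKI and 6824 to 8786 CPM in sham. Podocytes and fibroblasts, known to make CTGF, had 4 of 5 and 4 of 6 markers that rose and 1 each that fell (Nphs1 and Lum), summing to 575 to 804 CPM in HP-AKI against 443 to 595 CPM in sham, and to 459 to 616 CPM in HP-AKI against 303 to 368 CPM in sham. Of 5 endothelial markers 3 rose and 1 fell, with sums of 433 to 660.1 CPM in HP-AKI and 408 to 465 CPM in sham, and of 4 macrophage and monocyte markers 1 rose and 3 fell, with sums of 65.8 to 88.2 CPM in HP-AKI and 83.5 to 116 CPM in sham. Of 4 adrenal cortex markers, a tissue known to express Nov, Star rose and the rest were too rare to test. Cyp11a1 had 67 counts in HP-AKI and 16 in sham, Cyp21a1 had 6 in HP-AKI and 2 in sham, and Cyp11b1 had 0 in HP-AKI and 1 in sham. These sums covered 4.92 to 7.89 CPM in HP-AKI and 1.38 to 2.22 CPM in sham. The part of any of these cell types in the rises of the 10 genes was not tested.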

How the data were processed

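Kidney RNA of 6 HP-AKI and 6 sham libraries was read from 1 deposited table. Per the labels' protocols, Trizol and a Qiagen kit gave the RNA, and a TruSeq RNA kit v2 the libraries. Named without roles in the submitters' processing notes are GRCm38, edgeR, featureCounts and TopHat2 2.1.0. The deposited counts are the authors' raw whole-number counts per gene. RPKM columns, also deposited, divide counts by listed length and by a total for each sample. That total was 2.97 to 3.47 times the sum of counts, so RPKM values here were computed anew from counts, TMM-scaled totals and listed lengths. Depth is given above, and floors cover counting error only.

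The test was that of edgeR 4.0.16 in R 4.3.3, with filterByExpr by group, TMM factors and a two-sided quasi-likelihood F-test, with Benjamini-Hochberg adjustment over 17470 genes. The SE is the size of the log2 fold change over the root of F. CPM is TMM-scaled. The groups share no sample numbers, and no batch is given. The 10 genes, the 6 pathway lists and the 9 marker lists were chosen with earlier results of these data known. Named from each list were the 3 called genes with the largest rise and the 3 with the largest fall, every TEAD and VGLL gene and every CCN gene. Further list genes in the text (few counts, a call that hangs on 1 library, a partner of a named gene) were picked with their values in view. Of 131 list entries, 1 was matched through its identifier under an older symbol. Alternatives were RLE, upper-quartile and library-size scaling, DESeq2 1.42.0, limma-voom (limma 3.58.1), no filter, a filter of 1 CPM in 6 libraries, each library left out, and sham 1, sham 2 and HP-AKI 8 left out together. Sequences are from RefSeq (GRCm38.p6), and exon overlaps from GENCODE on GRCm38, whose exonic bases differ from the listed length for some genes.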

Additional observations from a re-analysis of the deposited data

Results flagged for a closer look

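In 92 groups of 6 values, 7 had a library whose gap to the next exceeded 0.625 of the group's range, where chance gives about 1 in 20. Ankrd1 was at 3.0 CPM in sham 6 and at 2.1 to 2.36 CPM in the other sham libraries. HP-AKI 8 stood above the other HP-AKI libraries for Gadd45a (158 CPM against 96.1 to 117 CPM) and for Itgb3 (47.9 CPM against 20.7 to 28.6 CPM), and it was also the highest HP-AKI library for Ctgf and Thbs1. HP-AKI 12 stood above the others for Cd36 (582 CPM against 259 to 306 CPM), and it was the lowest HP-AKI library for Ctgf and Thbs1. HP-AKI 9 was low for Fhl1 (76.6 CPM against 86.0 to 90.6 CPM) and had a Vgll1 value of 0.466 CPM against at most 0.0874 CPM in the others. Sham 1 was low for Wwc2 (110.4 CPM against 121 to 124 CPM). No cause was tested.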

How the results depend on the processing

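No paired analysis was possible because the groups share no sample numbers. All 10 genes rose past the threshold in each of the 20 alternatives, and the largest adjusted p among these 200 values was 1.84e-04 (edgeR, DESeq2 or limma). Their log2 fold changes ran from 0.37 to 0.54 for Yap1, 2.18 to 2.49 for Ctgf, 2.08 to 2.42 for Cyr61, 1.99 to 2.33 for Thbs1 and 2.76 to 3.02 for Ankrd1. With totals unscaled by TMM (library size alone) the median over all tested genes was 0.16 in place of 0.04, 7 of the 10 genes were at least 2-fold higher and 58.0% of calls were rises, against 51.7% with TMM. Without sham 2, and without HP-AKI 12, 6 of the 10 were at least 2-fold higher. Over the alternatives 11163 to 14633 genes passed. Tead2 turned positive with library size alone (0.09) and without sham 4 (0.01), sham 5 (0.00), sham 6 (0.05) or HP-AKI 11 (0.00), without passing, and ranged from -0.16 to 0.05 with 1 library left out. Unlike for Tead2, the call itself changed for Tead3 (upper-quartile scaling 0.41, no filter 0.42, and libraries named above). It changed as well for Vgll4 (without sham 1, sham 2 and HP-AKI 8, -0.39), Thbs3 (library size alone, -0.39) and Obfc1 (library size alone, 0.30). Of the further list genes, Mob1b rose with library size alone (0.32), Taok2 (-0.19) and Crim1 (-0.18) fell with upper-quartile scaling, and Comp fell with no filter (-1.24). Causes were not tested. Depth limited Vgll1, Vgll2, Wisp2, Wisp3 and Foxf2.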
